A study of Homo sapiens with 2 samples.

Results

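The genes described here are 10 calcium- and sugar-binding proteins: the annexins ANXA1, ANXA2, ANXA5 and ANXA6, the S100 proteins S100A6, S100A10, S100A11 and S100A13, and the galectins LGALS1 and LGALS3. They were taken by symbol, with earlier results of these data known, from a table of 23608 gene rows, and each has 1 row. The table compares total RNA sequencing with ribosome profiling of SW13, an established human adrenal adenocarcinoma line. In both preparations 10000000 cells at 80% confluence carried 5 µg of the plasmids Add2-Mhrt779 and Add2-Hotair, which encode murine non-coding RNAs, and they were collected after 48 hours. There was 1 library of each kind and no library of untransfected cells was analysed here, so replicate errors could not be given and no p-value was computed.

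Values are FPKM, that is, fragments scaled by transcript length and library size, as the authors deposited them. The unit keeps no depth, so how many reads support a value is unknown. In bulk cells, RNA in fewer cells and less RNA per cell cannot be told apart. As a check of the label, 5 genes of steroid synthesis and its control were examined: STAR, CYP11A1, CYP17A1, HSD3B2 and NR5A1. All 5 were listed at 0 in both libraries, as were the epithelial genes CDH1 and EPCAM and 38.5% of all rows. Such zeros cannot decide whether the adrenal label holds. The filament genes VIM, KRT8 and KRT18 had 490, 41.9 and 57.2 FPKM in RNA sequencing and 707, 69.7 and 139 FPKM in ribosome profiling.

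Annexins bind phospholipid membranes when calcium rises and serve in membrane repair, trafficking and the cortical cytoskeleton. S100 proteins are small EF-hand dimers that bind target proteins, among them annexins: S100A10 joins ANXA2 in a heterotetramer at the plasma membrane, and S100A11 binds ANXA1. Galectins bind β-galactosides on glycoproteins. Galectins, ANXA1 and several S100 proteins have no signal peptide and are made on cytosolic ribosomes, although they also act outside the cell.

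Since ribosome profiling reads RNA that ribosomes protect, the start codons of 9 of the genes are shown first, each with the 12 bases before and the 9 bases after it. They come from 1 GENCODE 29 transcript per gene (GRCh38), written 5′ to 3′ on the strand of the gene, with the ATG in capitals. The ANXA1, LGALS1 and LGALS3 genes lie on the plus strand and the other genes shown on the minus strand.
ANXA1: actttttcaaaaATGgcaatggta
ANXA2: gcttccttcaaaATGtctactgtt
ANXA5: tgagtagtcgccATGgcacaggtt
ANXA6: gaaccggagaccATGgccaaacca
S100A6: cagccctcagccATGgcatgcccc
S100A11: ctcagctccaacATGgcaaaaatc
S100A13: ctcagggtcctaATGgcagcagaa
LGALS1: ctggactcaatcATGgcttgtggt
LGALS3: aacgagcggaaaATGgcagacaat
A purine 3 bases before the ATG and a G directly after it are the letters usually associated with efficient initiation. Among the 9 shown, S100A13 was the exception at the first position and ANXA2 at the second. S100A6 is among those shown but had no measured value. Of the 8 shown that were measured, both letters were present in 6, against 48.4% of 2084 tested protein-coding genes with such a sequence. The purine alone was present in 7 of these 8 and in 91.7% of the tested genes.

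Among the 10 genes 9 were measured. Each had a higher FPKM in ribosome profiling than in RNA sequencing, as did the median tested gene, defined below. That gene was 1.31-fold higher with 1 FPKM added to both values. LGALS1 was by far the most abundant, with 58.9% of the FPKM of the 10 genes in RNA sequencing and 64.4% in ribosome profiling. In RNA sequencing the order was LGALS1, ANXA2, S100A11, S100A10, S100A13, ANXA5, ANXA1, ANXA6 and LGALS3. In ribosome profiling the order kept LGALS1, ANXA2 and S100A11 in front and ANXA6 and LGALS3 at the end, while ANXA1 moved up to the place after S100A11. With 1 library each, no spread is available to say which neighbours in these orders differ. S100A6, also called calcyclin and known as a growth-regulated gene, was listed at 0 in both libraries and has no ratio. An exact 0 in a table without read counts can be a failed estimate, and which it is was not tested for S100A6 or for any other gene listed at 0 here. Among 76 genes of ribosomal proteins, which every cell uses, 75 were above 0 in both libraries, and RPL13A had 22.6 FPKM in RNA sequencing but was listed at 0 in ribosome profiling.

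**Figure D1:**
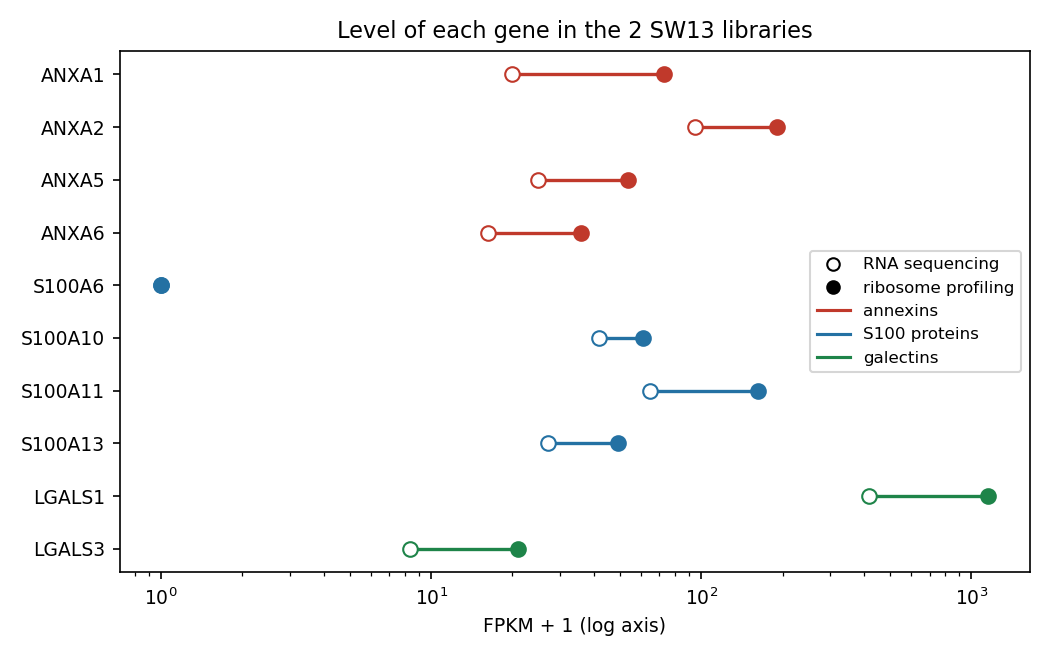
FPKM plus 1 on a log axis for each of the 10 genes, with an open circle for the RNA sequencing library and a filled circle for the ribosome profiling library, coloured by family. The filled circle lies to the right of the open one for 9 genes, and S100A6 sits at 0 FPKM in both libraries.

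Ratios are given as log2((ribosome profiling FPKM + 1)/(RNA sequencing FPKM + 1)), relative to the median of 2734 tested genes. A gene was tested if its FPKM averaged 10 or more over the libraries. The pseudocount of 1 understates the ratio of low genes. With this pseudocount and before centring, that median gene was 1.31-fold higher in ribosome profiling. All 9 measured genes passed the filter, but LGALS3 passed only through its ribosome profiling value. At the RNA level of LGALS3, any value that passes the filter lies above the median gene. All 9 lay above the median gene, which 50.0% of tested genes do by construction, and 7 of them lay above the upper quartile of tested genes, which is 1.50-fold above the median gene. ANXA1 and LGALS1 were at least 2-fold above it, 2 of 9 against 13.1% of all tested genes. None was at least 2-fold below, against 19.7% of tested genes. The tested genes include non-coding rows. Of those with a protein in RefSeq, 10.0% lay at least 2-fold above. In the protein-length ranges described below, 12.5% to 17.7% lay at least 2-fold below. The median log2 ratio of the 9 was 0.77, against 0.039 for the 2264 tested genes that have a protein in RefSeq. The 2-fold count depends on the reference gene. With a filter of 1 FPKM the median gene before centring moved from 0.39 to -0.16, and 8 of the 9 then lay 2-fold or more above it. With a filter of 30 FPKM it was 1 of the 7 that passed. With both libraries scaled to the same FPKM sum, only ANXA1 lay above 0; there 1 ribosomal RNA row, RNA5-8S5, made up 65.0% of the ribosome profiling sum over tested genes and 8.68% of the RNA sequencing sum.

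**Figure D2:**
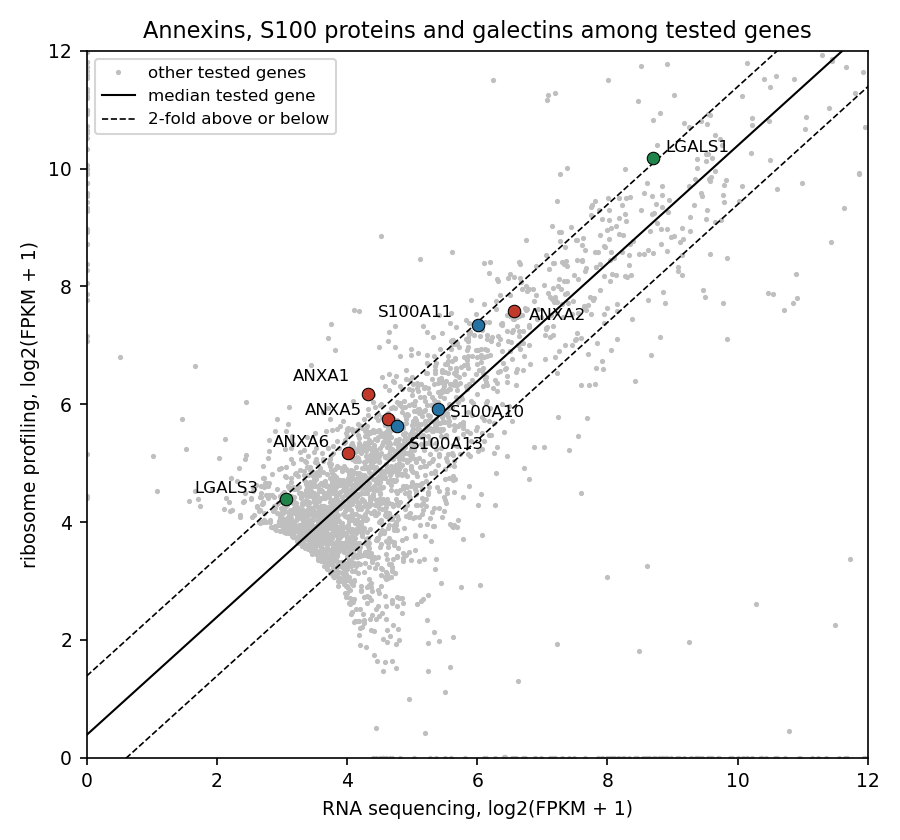
Each tested gene by its log2(FPKM + 1) in RNA sequencing (x axis) and ribosome profiling (y axis), with the measured annexins, S100 proteins and galectins named. The solid line marks the median tested gene and the dashed lines 2-fold above and below it; all 9 lie above the solid line, and 87 tested genes beyond a log2 value of 12 are outside the axes.

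Among the annexins, ANXA1 had the highest ratio and the other members lay close together. ANXA1, a phospholipid-binding protein that glucocorticoids induce and that limits inflammation, had 18.99 FPKM in total RNA and 71.5 FPKM in ribosome profiling. It lay 2.77-fold above the median gene, and 92.7% of tested genes had a lower ratio. The gene lies on chromosome 9 from 75766781 to 75785307 (hg19, as are all positions of rows below). ANXA5, the protein used to stain exposed phosphatidylserine on dying cells, had 23.8 and 52.6 FPKM, 1.65-fold above the median gene. It lies on chromosome 4 from 122589152 to 122618147. ANXA6, which carries a doubled set of annexin repeats and acts in endocytosis and membrane repair, had 15.2 and 35.03 FPKM, 1.70-fold above. It lies on chromosome 5 from 150480267 to 150537443. Both ANXA5 and ANXA6 thus lay within 2-fold of the median gene.

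ANXA2, the partner of S100A10 and a surface receptor for plasminogen, was the second most abundant of the 10. It had 93.5 FPKM in total RNA and 190.3 FPKM in ribosome profiling, or 1.55-fold above the median gene, and lies on chromosome 15 from 60639350 to 60690185. This row is uncertain, because the genome holds processed copies of ANXA2 with nearly the same sequence. Over the ANXA2 coding sequence, ANXA2P2 was identical at 98.4% of 1017 aligned positions, ANXA2P1 at 93.8% of 926 and ANXA2P3 at 92.3% of 1007. The stretch below, coding bases 304 to 363 of ANXA2 in GENCODE 29, shows how few bases can separate them: it is the 60-base stretch with the fewest differences in which every copy still differs from ANXA2. Bases that differ from ANXA2 are in capitals.
ANXA2: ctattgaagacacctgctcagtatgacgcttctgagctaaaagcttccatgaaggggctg
ANXA2P1: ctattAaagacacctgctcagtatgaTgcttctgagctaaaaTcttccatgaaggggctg
ANXA2P2: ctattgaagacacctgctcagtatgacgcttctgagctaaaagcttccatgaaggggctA
ANXA2P3: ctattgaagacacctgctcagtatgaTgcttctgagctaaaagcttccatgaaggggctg
A read that lies within this stretch and ends before its last base has the same letters in ANXA2 and ANXA2P2. Of all stretches of 30 bases in the ANXA2 coding sequence, 73.9% also occur without a mismatch in a copy, and of all stretches of 50 bases, the read length of this study, 59.4% do.

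The rows of the copies were not low. For ANXA2P2, found on chromosome 9 from 33624223 to 33625532, the values were 89.6 FPKM in total RNA and 230 FPKM in ribosome profiling, close to ANXA2 itself in the first library and above it in the second. ANXA2P1, whose row spans chromosome 4 from 154074270 to 154260474, had 12.6 and 46.2 FPKM, 2.65-fold above the median gene. ANXA2P3 had 12.1 and 18.1 FPKM, 1.11-fold above, and is placed on chromosome 10 from 66585285 to 66586634. ANXA2 held 45.0% of the summed FPKM of the 4 rows in RNA sequencing and 39.2% in ribosome profiling. Summed, the rows had 208 and 485 FPKM, 1.78-fold above the median gene, so that the sum and the ANXA2 row alone both lay above the median gene and under 2-fold. How the authors assigned reads that match several rows is not given in the sources used here.

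Apart from S100A6, listed at 0, the S100 proteins lay between 26.2 and 63.6 FPKM in RNA sequencing. S100A11, which binds ANXA1 and acts at the membrane and in keratinocyte growth control, had 63.6 FPKM in total RNA and 161 FPKM in ribosome profiling, or 1.91-fold above the median gene. S100A13, which takes part in the release of FGF1 and IL1A without a signal peptide, had 26.2 and 48.3 FPKM, 1.38-fold above. S100A10, the light chain of the ANXA2 complex, had 40.9 and 59.8 FPKM and lay 1.11-fold above, the lowest ratio of the 9. With a filter of 30 FPKM it lay at -0.029 on the log2 scale, just below the median gene. Its row was nearer the middle of all tested genes than that of any other member, with 56.3% of tested genes at a lower ratio. The ANXA2 row had 2.28 times the FPKM of S100A10 in RNA sequencing and 3.18 times in ribosome profiling.

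S100A6, listed at 0, has no stretch of 30 coding bases in common with another GENCODE gene, nor do S100A10, ANXA1, ANXA5, ANXA6, LGALS1 and LGALS3. For S100A11, 17.1% of such stretches occur elsewhere, among others in the processed copies S100A11P1 and S100A11P2. Of its stretches of 50 bases, the read length, 4.14% do, in AC006483.1 alone. For S100A13, 42.3% occur in AL162258.1, a non-coding transcript that overlaps its locus, and of stretches of 50 bases 37.55% do. The S100A13 row shares its coordinates with the rows of CHTOP and S100A1. CHTOP had 8.94 and 8.61 FPKM there and S100A1 was listed at 0 in both libraries. The S100A13 value is therefore uncertain too.

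The S100 genes of chromosome 1 were described as a neighbourhood. Between the start of S100A10 and the end of S100A13, from 151955386 to 153618782, the table has 64 rows, of which 17 are S100 genes. Above 0 in either library were 6 of these 17 and 3 of the other 47 rows, many of which are genes of skin differentiation. Of all rows in the table, 38.5% were listed at 0 in both libraries, a smaller share than in either group. S100A10 and S100A13, which set the ends, and S100A11 are among the genes described here, so the 6 are not independent of that choice. The S100 genes above 0 were S100A10, S100A11 and S100A13 and, at lower levels, S100A4, S100A2 and S100A16. S100A4, a motility-associated protein that binds non-muscle myosin, had 6.12 and 13.8 FPKM. S100A2 had 1.46 and 3.41 FPKM, and S100A16 had 0.64 and 2.00 FPKM.

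The 2 galectins had much the same ratio at very different levels. LGALS1, a secreted lectin that cross-links β-galactosides and that many tumour cells make in quantity, had 415 FPKM in total RNA and 1155 FPKM in ribosome profiling, or 2.12-fold above the median gene. LGALS3, the chimeric galectin with a proline- and glycine-rich tail, had 7.39 and 20.1 FPKM, 1.92-fold above. LGALS1 had 56.2 times the FPKM of LGALS3 in RNA sequencing and 57.6 times in ribosome profiling. They lie on chromosome 22 from 38071613 to 38075809 and on chromosome 14 from 55595935 to 55612148.

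In the authors' deposited table none of the 9 was called different between the assays, where 1.30% of 4849 rows with the status OK were called. The deposited log2 ratios, not relative to the median gene, ran from 0.55 for S100A10 to 1.91 for ANXA1, with q-values in the authors' deposited table from 0.276 to 0.799. The unadjusted p of ANXA1 in the authors' deposited table was 0.0282, the only one of the 9 under 0.05. Of all rows with the status OK, 14.2% had an unadjusted p under 0.05 in the authors' deposited table. Standard errors, taken from the deposited statistic, ran from 0.76 to 1.10 on the log2 scale. They are errors of the authors' model and hold no spread between cultures. ANXA1 had a 95% interval of 0.20 to 3.62 for its log2 ratio in the authors' deposited table, and for each of the other 8 it included 0. The interval of ANXA1 also included 0.39, the log2 ratio of the median tested gene with the pseudocount, so ANXA1 was not set apart from that gene.

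**Figure D3:**
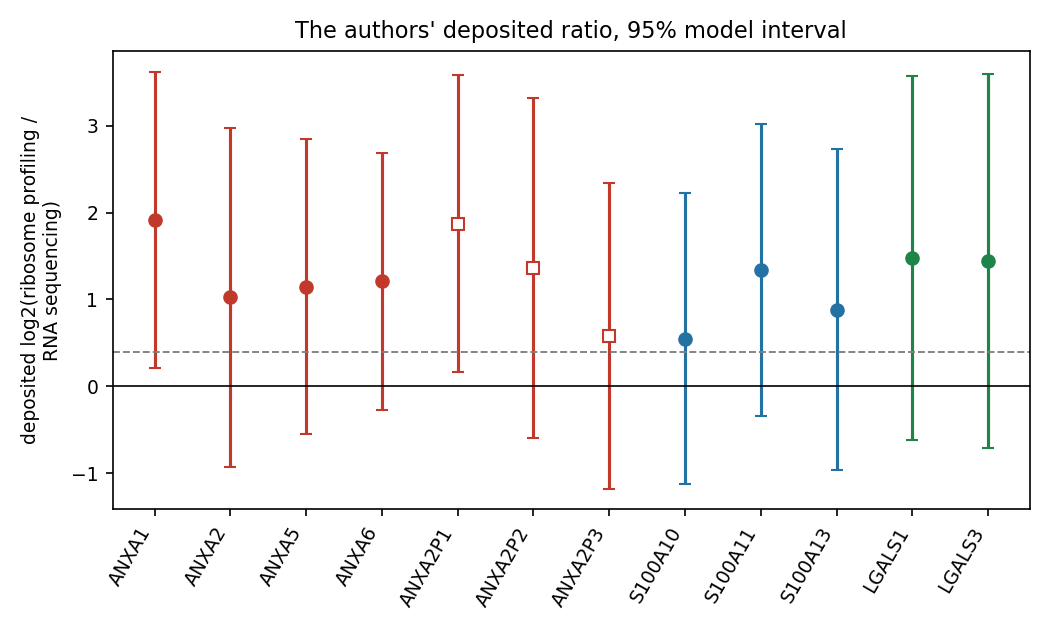
The authors' deposited log2 ratio between ribosome profiling and RNA sequencing, with 95% intervals from the deposited statistic, for the 9 measured genes (filled circles) and the 3 ANXA2 copies (open squares). The solid line is 0 and the dashed grey line the median tested gene at 0.39, taken with the pseudocount of 1. Only the intervals of ANXA1 and ANXA2P1 lie wholly above 0, and both include the dashed line.

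Differences between members stayed within these errors. Of the 36 pairs of measured genes, none had a 95% interval for the difference in deposited log2 ratio that excluded 0, even without widening it for the number of pairs. The furthest apart were ANXA1 and S100A10 in the authors' deposited table, by 1.37 with an interval from -1.03 to 3.76. For ANXA2 minus its partner S100A10 the difference in the authors' deposited table was 0.48, with an interval from -2.09 to 3.05. For ANXA1 minus S100A11 it was 0.57 in the authors' deposited table, from -1.82 to 2.97, and for LGALS1 minus LGALS3 it was 0.035, from -2.97 to 3.04. Intervals this wide leave room for differences of several fold either way.

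Protein length and the coding part of the transcript were set beside the ratio, since footprints fall mostly on coding sequence while FPKM divides by the whole transcript. The lengths are those of the GENCODE 29 transcripts above, not the models the authors used. The S100 proteins have 90 to 105 residues, the galectins 135 and 250, ANXA1, ANXA2 and ANXA5 320 to 346, and ANXA6 has 673. The 205 tested genes with proteins of up to 120 residues had a median log2 ratio of 0.21, above the -0.019 of proteins with more than 120 and up to 250 residues, the 0.041 of those up to 500 residues and the 0.027 of longer ones. Relative to the range of its own length, LGALS1 lay 1.10 higher on the log2 scale, ANXA1 1.43 higher and S100A11 0.73 higher. S100A10 lay at -0.061, the only one of the 9 below its range's median.

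S100A10 also had the smallest coding part, 24.2% of its 1202-base transcript, against 42.9% to 77.9% in the other measured genes. With the ribosome profiling value taken per coding length and the median gene recalculated, a setting chosen after seeing the data, S100A10 changed from the lowest of the 9 to the highest, 2.44-fold above the median gene. A shorter GENCODE transcript of S100A10 has 616 bases and a coding part of 47.2%, and with it the value was 1.25-fold above. ANXA1 was 2.17-fold above in the same setting and LGALS1 1.58-fold, while ANXA6, with the largest coding part, was 1.17-fold above. All 9 stayed above the median gene there, but their order rests on the transcript model.

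**Figure D4:**
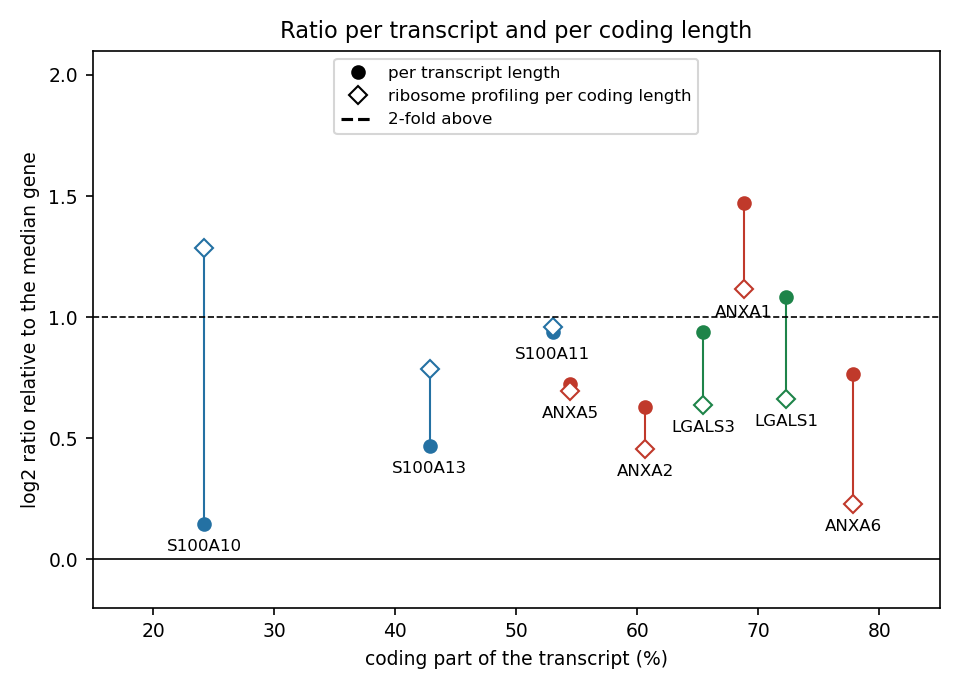
Log2 ratio relative to the median gene against the coding part of the GENCODE transcript in percent, for the 9 measured genes, with filled circles for FPKM per transcript and open diamonds for ribosome profiling per coding length. All circles and diamonds lie above 0; S100A10, at 24.2%, moves from 0.15 to 1.29, while S100A11 and ANXA5 hardly move.

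Most other rows of these families were listed at 0, which 38.5% of all rows in the table are. Of the other 10 annexin rows 6 were listed at 0 in both libraries, as were 14 of 17 other S100 rows and 13 of 14 other galectin rows, LGALS8 and LGALS9 among them; as for S100A6, these can be failed estimates. None of these rows reached a mean of 10 FPKM. The highest of the annexins were ANXA7, with 6.03 and 12.97 FPKM, ANXA11, with 8.75 and 8.73 FPKM, and ANXA4, with 4.57 and 11.6 FPKM, named after their values were seen. In the authors' deposited table ANXA11 had a log2 ratio of -0.0030, while ANXA4 and ANXA7 had 1.34 and 1.11 with standard errors of 0.94 and 0.90. None was called.

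Genes that work with these proteins lay on both sides of the median gene, as tested genes do by construction. The list holds other calcium sensors, calpains, membrane repair factors, galectin ligands and plasminogen activators. Of 36 listed genes 20 were tested: 3 lay 2-fold or more above the median gene, 3 lay 2-fold or more below and 14 between, against 13.1% and 19.7% of all tested genes. Their median log2 ratio was 0.19. Above were TGM2, a calcium-dependent transglutaminase, with 4.86 FPKM in total RNA and 22.2 FPKM in ribosome profiling, LGALS3BP, a secreted galectin ligand, with 5.93 and 23.5 FPKM, and PLAUR, the urokinase receptor, with 42.1 and 122 FPKM. Below were AHNAK, a giant scaffold that the ANXA2 and S100A10 complex binds, with 34.1 and 18.7 FPKM, the ESCRT subunit CHMP4B, with 17.6 and 6.58 FPKM, and CALM3. TGM2 and LGALS3BP had less than 10 FPKM in RNA sequencing, and CHMP4B and CALM3 less than 10 FPKM in ribosome profiling. Because the filter is on the mean, these 4 of the 6 genes passed at those low values only with a higher value in the other library. At the lower values of TGM2, CHMP4B and CALM3, any value that passes the filter lies 2-fold or more from the median gene. At that of LGALS3BP it lies above the median gene. The counts of 3 above and 3 below are thus partly set by the filter. Taken from the higher value, the filter did not force a difference on CALM3. At its 35.04 FPKM in RNA sequencing it would have passed with any ribosome profiling value.

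The rows of CALM2 and CALM3, which encode the EF-hand calcium sensor calmodulin, lay on opposite sides of the median gene. CALM3 had 35.04 and 5.47 FPKM, 7.30-fold below the median gene. CALM2 had 66.5 and 155 FPKM, 1.76-fold above. The authors' deposited table called none of the 36 genes; of the 27 with the status OK there, 6 had an unadjusted p under 0.05, which 14.2% of all rows with that status had. The most abundant tested partners were the calpain subunit CAPNS1, with 133 and 154 FPKM, CALM2, and the galectin ligand BSG, with 69.9 and 143 FPKM. AHNAK, CHMP4B, LGALS3BP and PLAUR were named after their values were seen.

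Outside these lists, the genes nearest to ANXA1 in both log2(FPKM + 1) values were ASNS, at a distance of 0.077, and SNRPD3, at 0.16. Those nearest to S100A10 were RBMX, at 0.012, and HNRNPAB, at 0.027. This likeness rests on 2 libraries alone.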

How the data were processed

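Total RNA and ribosome-protected fragments of transfected SW13 cells were read at 50 nt from both ends, 1 library each. Per the submitters' processing notes, the builds were hg19 and mm10 and the tools bedtools 2.16.1, SAMtools 0.1.18, Bowtie2 2.0.0.6 and TopHat2 2.0.8b, with no stated role. The sources used here give neither the program behind the table nor its treatment of multiply matching reads. The authors deposited FPKM for each library, with a log2 ratio, test statistic, p-value and q-value per row. The statistic had the opposite sign to the ratio in 100% of rows with both, and the deposited p-value matched its two-sided normal p within 0.001, so the ratio divided by the statistic, without its sign, served as the standard error.

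Row starts were written with the first base as 1. Rows with the status FAIL or HIDATA were not tested. Sequences and lengths come from GENCODE 29, 1 transcript per gene (principal isoform, longest coding sequence, best support), found for 95.7% of the 2264 tested protein-coding genes. Python 3.11.15, pandas 2.3.3, scipy 1.17.1 and Biopython 1.88 were used. The ratio step was tested on simulated data with larger changes than those of the measured genes and less spread than the tested genes. That test therefore cannot speak for calls near 2-fold. One start sequence and the values of 1 listed partner are not reported here. The genes and lists were chosen with earlier results of these data known. Genes named beside the 10 were other family rows with a mean of at least 10 FPKM (there were none), rows of processed copies, the 3 most abundant partners, the partners at either end of the ratios, and the 2 genes nearest to the members of highest and lowest ratio. Of the alternatives, 10 were planned and 2 added after seeing the data.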

Additional observations from a re-analysis of the deposited data

How the results depend on the processing

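No paired analysis was possible because each assay had 1 library, and for the same reason no replicate could be left out. Pseudocounts of 0.1 and 5 FPKM, status OK rows alone, centring on genes with a protein in RefSeq and summing ANXA2 with its copies changed no count by over 1.5 times and no direction. With a mean filter of 1 FPKM, 8 of the genes described passed 2-fold above the median gene (2 in the report), as were 5 other family rows and 10 partners, and 1681 and 2127 tested genes were above and below. Without a filter these were 8, 5, 14, 2332 and 2180, against 358 and 538 in the report. With a filter of 30 FPKM, which ANXA6 and LGALS3 did not pass, 1 gene was 2-fold above, S100A10 was at -0.029, 0 partners were above and 0 below, and 182 and 261 tested genes were above and below. Without centring 7 genes, 6 partners and 645 tested genes were 2-fold above and 389 below. With equal FPKM sums, which shifted the median gene to -1.29, the members' median was -0.57, 1 lay above 0, 0 were 2-fold above and 1 below; 0 partners were above and 12 below, and 110 and 1756 tested genes. There ANXA2 was at -0.79, ANXA5 at -0.65, ANXA6 at -0.57, LGALS1 at -0.35, LGALS3 at -0.33, S100A10 at -1.23, S100A11 at -0.48 and S100A13 at -0.90, while ANXA1 was at 0.081. Per coding length, 352 tested genes were 2-fold below. Centred within protein-length ranges, S100A10 was at -0.061, and 198 and 334 of the 2166 genes with a length were 2-fold above and below. Depth is unknown, and these ratios cannot tell what another pair of libraries would give.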
